A study of Drosophila melanogaster with 9 samples.

Results

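The baseline transcriptome of the control wing imaginal disc was described from the 3 libraries labelled control, out of 9 libraries in the series. The libraries were chosen by their label alone, and no knockdown library entered any value. RNA came from wing discs of Drosophila melanogaster larvae, and each library held a pool of 60 discs gathered in lots of 20. Per the labels, the control genotype was tsGAL80;tubG4/+, that is, a ubiquitous tubulin-GAL4 driver with temperature-sensitive GAL80, the same background in which hairpins against Psi and Myc were expressed in the other 6 libraries (3 each, not analysed here). The controls therefore carried the driver and the repressor but no hairpin, and a yeast transcription factor was present in all of their cells. The names of the deposited control files point instead to the strain W1118, so the genotype is uncertain, and the label was followed here. Larvae were of the third instar and were reared at 18 °C for 4 days and at 25 °C for 3 days per the labels. The labels disagree on mid or wandering stage, and the study's methods give another second temperature. No source says whether the 3 pools came from separate crosses, so the spread between them may in part be technical.

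The wing disc is an epithelial sac set aside in the embryo, which grows through larval life and turns into the wing and the back of the thorax at metamorphosis. Its pouch forms the wing blade, its hinge and notum form the more proximal parts, and tracheal branches and muscle progenitors lie against it. Position is laid down by compartment genes and by secreted signals (Hedgehog, Dpp, Wingless and ligands of Notch and of the EGF receptor), while the Hippo, insulin and ecdysone pathways tie growth to tissue size, nutrition and stage.

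Poly(A) RNA was sequenced as stranded 100 bp read pairs, and each library is a table of pair counts for 17471 genes. Levels are given as CPM, which is the count of a gene divided by all counts assigned to genes in that library and scaled to a common total, which also depends on the length of the gene. Ranks and per-pool values are given as CPM, and levels of different genes were set against each other as CPM per kilobase of exon. Counts assigned to genes totalled 34401160, 32850072 and 27051832 in controls 1, 2 and 3. A count of 0 in all 3 pools allows a level of up to 0.0318 CPM (3 counts in the summed 94303064), which covers counting error only. Since 3 pools of 1 group were described, no test was run, and errors are standard deviations (SD) over the 3 pools.

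The control disc expressed close to 1 gene in 2 at an easily measured level. Of 17471 genes, 8199 (46.9%) had a mean of 1 CPM or more, 5018 had counts but a mean under 1 CPM, and 4254 (24.3%) had no count in any pool. Counts were concentrated in few genes. The 10 most abundant genes held 6.27 ± 0.318% of counts, the 100 most abundant held 23.2 ± 0.528% (SD, n = 3), and 537 genes were enough for 50% of all counts. Only 146 genes reached 1000 CPM, and together they took 28.5% of counts. A further 2124 genes between 100 and 1000 CPM took 52.3%.

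The most abundant transcripts encoded the machinery of protein synthesis, the cytoskeleton and chaperones. Eukaryotic elongation factor eEF1alpha1, which delivers aminoacyl-tRNA to the ribosome (2R, 11891135 to 11895762), ranked first by CPM, with 13714, 13998 and 13760.3 CPM in controls 1, 2 and 3. Cytoplasmic actin Act5C stood at 8069 ± 290.1 CPM, the constitutive chaperone Hsc70-4 at 5532 ± 128 CPM, the tubulins alphaTub84B and betaTub56D at 5514 ± 235 and 4592 ± 130.4 CPM, and the translocation factor eEF2 at 5386 ± 113 CPM (SD, n = 3). By CPM, differences between alphaTub84B, Hsc70-4 and eEF2 were no larger than about the spread between pools, so their order by CPM is not resolved. Per kilobase of exon they stood apart, at 3147.5 ± 134, 2037 ± 47.3 and 1762 ± 36.8 CPM per kilobase.

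Ribosomal protein transcripts formed the largest block. The 86 genes matched as cytosolic ribosomal proteins held 12.3 ± 0.141% of all counts (12.4%, 12.3% and 12.1% in controls 1, 2 and 3). Of these, 82 had a mean of 1 CPM or more, against the 46.9% of all genes that did. By CPM, in which long genes count for more, 4 of them were among the 20 highest genes, RpL3 at 3843 ± 18.7 CPM, sta (the small-subunit protein RpSA) at 3841 ± 97.6 CPM, RpL4 at 3151 ± 13.8 CPM and RpS2 at 2616 ± 18.8 CPM. They had a median coefficient of variation (CV, the SD over the mean) of 2.05% over the 3 pools, against 2.71% for all genes at 1000 CPM or more. RpL8 had 2474, 2471 and 2473 CPM in controls 1, 2 and 3.

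Per kilobase of exon, short ribosomal protein genes moved ahead. RpL41, whose exons add up to 320 bases, was the highest nuclear gene at 6838 ± 141 CPM per kilobase, eEF1alpha1 followed at 5611 ± 61.8, and RpL39 stood at 3498 ± 39.1, whereas RpL3 was at 1723 ± 8.37. Ribosomal proteins made up 13 of the top 20 genes per kilobase and 4 of the top 20 by CPM, and 9 genes were in both. Besides eEF1alpha1, sta and RpL4, these 9 were the mitochondrial ribosomal RNA mt:lrRNA, 2nd on both scales, Act5C, alphaTub84B, betaTub56D, the small heat shock gene Hsp23 (3326 ± 199 CPM per kilobase) and ImpE2, an ecdysone-inducible gene of imaginal discs (2175 ± 405 CPM per kilobase).

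**Figure D1:**
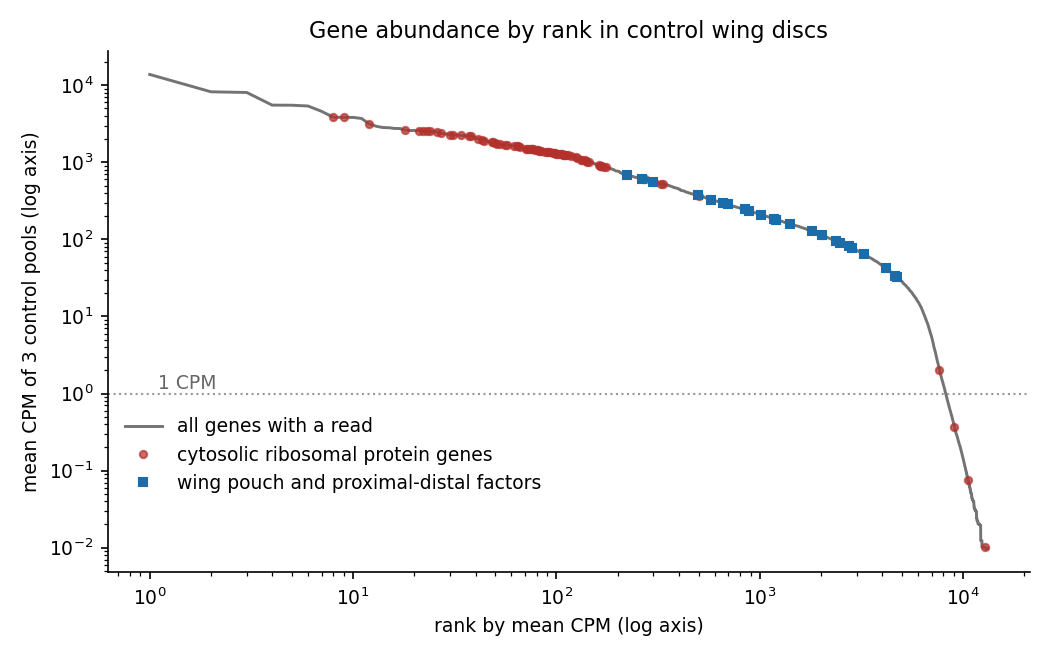
Mean CPM of the 3 control pools (log axis) against rank by mean CPM (log axis) for all genes with a read, with cytosolic ribosomal protein genes as circles and wing pouch and proximal-distal factors as squares. Of 86 ribosomal protein genes 81 lie at 100 CPM or more, all 24 patterning factors lie above the dotted line at 1 CPM, and rank 6479 is the last gene at 10 CPM or more.

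Some highly ranked genes were less general in function. The ecdysone-response gene br, which encodes the BTB zinc-finger factors of Broad and is needed for the start of metamorphosis, was 20th by CPM at 2588 ± 151 CPM, with 128 ± 7.49 CPM per kilobase over its long exons. The lectin gene nw (narrow), known for wing shape, was at 2589 ± 109 CPM. The non-coding lncRNA:CR42862 (3L, 224106 to 230964) was 10th by CPM, with 3816, 3689 and 3994 CPM in controls 1, 2 and 3, and at 699 ± 28.0 CPM per kilobase it was the highest of 2159 long non-coding genes. Only 134 of those 2159 reached 1 CPM and 1229 had no count, against 46.9% and 24.3% of all genes, in poly(A)-selected libraries. The mitochondrial large ribosomal RNA mt:lrRNA stood apart from the other leaders in its spread, with 11965, 8751 and 3992 CPM in controls 1, 2 and 3.

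Chaperones covered the full range of the transcriptome. Besides Hsc70-4, Hsp83 (the fly Hsp90) stood at 2747 ± 328 CPM, Hsp27 at 2331 ± 206 CPM and the chaperone of the endoplasmic reticulum Hsc70-3 at 1494, 1739 and 1720.2 CPM in controls 1, 2 and 3. The stress-inducible Hsp70 copies were at the other end. Hsp70Aa and Hsp70Ba had no count, and Hsp70Bb was at 0.262, 0.304 and 0.296 CPM. These copies are near identical, and pairs that align to more than 1 place are not counted, so their levels are uncertain. Hsp22 also had no count, but 100% of its exon bases are shared with another gene on the same strand, and such pairs are not assigned to either.

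Silent protein-coding genes had the fewest exon bases per gene and the largest share of genes known by a CG number only. Among the 2272 silent protein-coding genes the median total of exon bases per gene was 988.5, and 61.5% had a CG number only. Genes over 0 and under 1 CPM were close to them in the share with a CG number only, at 58.8%, with a median of 1413 bases. The median was 1868.5 bases between 1 and 10 CPM, 1959.5 between 10 and 100 CPM, 3559 between 100 and 1000 CPM and 1591.5 at 1000 CPM or more. The share with a CG number only was 47.5%, 34.2%, 14.96% and 0.694% in these 4 classes. By gene type, 16.3% of 13898 protein-coding genes had no count, against 51.7% of non-coding RNA genes, 64.9% of pseudogenes and 90.1% of tRNA genes.

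Silent genes were frequent where gene models overlap. Of 426 genes with over 95% of their exon bases covered by another gene on the same strand, 406 (95.3%) had no count, against 25.0% of the 13498 genes with under 5% covered on either strand. Of 183 genes covered in the same way only on the opposite strand, 27.3% had no count. The longest silent run, 23 neighbouring entries, held the trans-spliced exons of mod(mdg4) that are annotated as genes of their own (3R, 21354445 to 21373575). A run of 12 on the X held the repeated Stellate genes (14000210 to 14060157), and the histone genes of the repeated cluster had no count in 106 of 111. For such copies a count of 0 says little of transcription, since pairs with more than 1 place were not counted. Poly(A) selection also leaves out transcripts without a poly(A) tail. Other runs were 9 genes on 3L from CG7271 to CG32199 (18588759 to 18617943) and 6 sugar receptor genes from Gr64a to Gr64f (3L, 4026769 to 4037575).

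Chemoreceptor families and families of reproduction were nearly silent. Odorant receptors, the receptors of adult and larval olfactory neurons, had no count in 40 of 59 and reached 1 CPM in 2, with Or43b the highest at 10.1, 9.62 and 7.91 CPM in controls 1, 2 and 3. Gustatory receptors had no count in 42 of 60, with Gr61a highest at 2.09, 2.71 and 2.07 CPM. Ionotropic receptors had no count in 31 of 66, with Ir62a highest at 8.02, 6.45 and 8.65 CPM. None of 47 accessory gland protein genes and none of 11 chorion and vitelline membrane genes reached 1 CPM, and 29 and 5 of them had no count. These shares at 0 compare with 24.3% over all genes, of which 46.9% reached 1 CPM. Not all sensory families were alike. Only 1 of 7 opsins had no count, though none reached 1 CPM, and 9 of 51 odorant-binding proteins reached 1 CPM, with 28 at 0. The highest of these, Obp99b, Obp56d and Obp44a, were each over 4-fold apart between pools. On the Y chromosome 107 of 113 genes had no count and none reached 1 CPM.

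Other families were split. Of 48 genes matched as proteasome subunits, 32 reached 1 CPM and 31 of those 100 CPM, among them Rpn2 at 489.8, 506 and 539.7 CPM in controls 1, 2 and 3. Of the remaining 16, 3 had no count. Among 73 mitochondrial ribosomal protein genes 72 reached 10 CPM but only mRpS30 reached 100 CPM, so that their median of 32.7 CPM per kilobase compares with 1632 CPM per kilobase for the cytosolic ribosome. Cuticle proteins of the R and R type reached 1 CPM in 23 of 98, and Cpr49Ac was the highest at 329 ± 11.1 CPM per kilobase (696 ± 23.6 CPM). Of 35 glutathione S-transferases 22 reached 1 CPM, led by GstD1 at 862 ± 49.8 CPM per kilobase (727 ± 42.0 CPM). Over all genes, 46.9% reached 1 CPM.

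**Figure D2:**
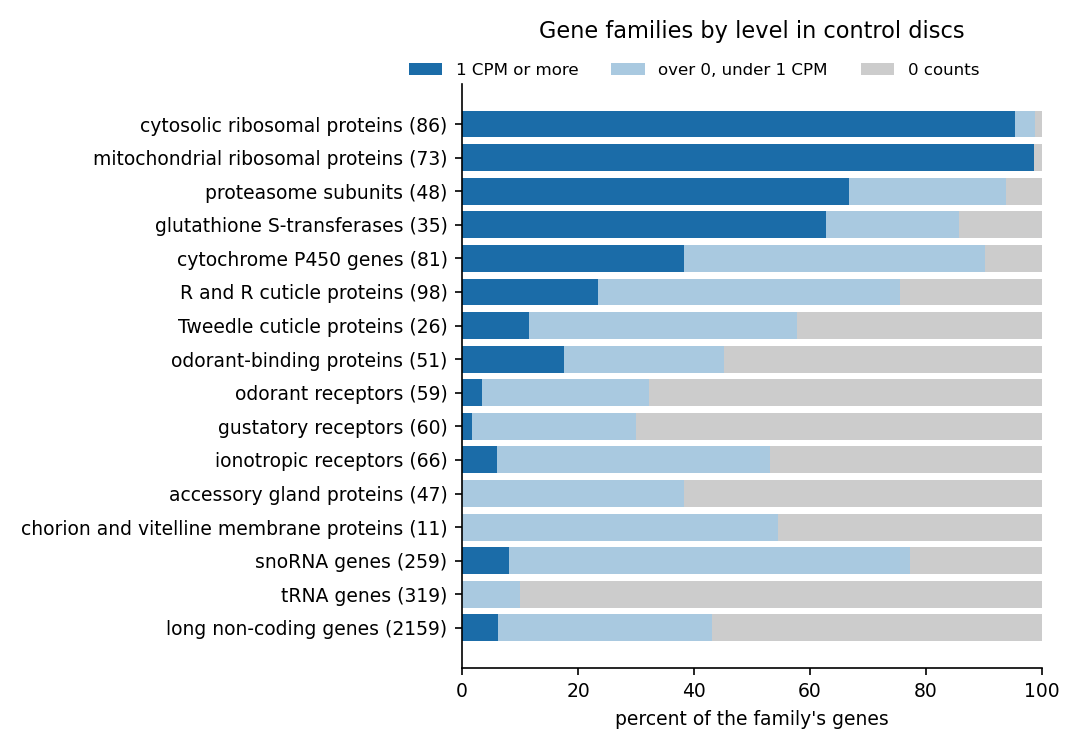
Percent of the genes of 16 families (number of genes in brackets) that had a mean of 1 CPM or more, a mean over 0 and under 1 CPM, or 0 counts in all 3 control pools. Ribosomal protein families are almost wholly at 1 CPM or more, while odorant and gustatory receptors and tRNA genes have no count in most members.

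Patterning genes of the wing disc were expressed at middle levels. All 24 listed factors of the pouch and the proximal-distal axis, all 14 of the dorsal-ventral axis and margin and all 8 of the anterior-posterior axis reached 1 CPM, against 46.9% of all genes. The median CV of these lists over the 3 pools was 4.52%, 2.20% and 4.31%, against 4.05% over all genes at 10 CPM or more. No member was over 4-fold apart between pools, where 4.56% of all genes at 1 CPM or more were. Of those 374 genes, 331 lay between 1 and 10 CPM. Among the 6479 genes at 10 CPM or more, only 43 were over 4-fold apart. In the lists 24, 13 and 8 members were at 10 CPM or more, so finding none is near that share. Their median levels were 41.1, 46.0 and 36.1 CPM per kilobase, against 19.5 over all genes at 1 CPM or more. The lists hold genes known to be active in this tissue and were chosen for that.

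Along the proximal-distal axis, the pouch selector vg and its DNA-binding partner sd had 183, 178 and 183 CPM and 544, 569.6 and 568 CPM in controls 1, 2 and 3. Per kilobase, vg was at 46.5 ± 0.689 and sd at 64.0 ± 1.64. The POU factor nub of the pouch was at 55.8 ± 1.76 CPM per kilobase, and rn, of the distal pouch, at 39.1 ± 1.25. The factors tsh and hth of hinge and notum were at 78.9 ± 3.18 and 51.8 ± 2.16 CPM per kilobase. Also in the list, exd was at 99.5 ± 7.39 and zfh2 at 55.0 ± 2.71 CPM per kilobase. The Dpp targets salm and bi were at 38.4 ± 2.39 and 30.4 ± 0.192 CPM per kilobase. A level in a whole disc averages over the domain and the rest of the tissue, and fewer expressing cells and less RNA per cell cannot be told apart.

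Along the anterior-posterior axis, ci, the transcription factor of Hedgehog signalling in the anterior compartment, was the highest at 584, 551 and 595 CPM in controls 1, 2 and 3 and 102 ± 4.09 CPM per kilobase. The posterior selector en and the ligand hh, which it activates, were at 38.9 ± 2.36 and 36.5 ± 0.351 CPM per kilobase, and the receptor ptc at 35.7 ± 0.311. The receptor component smo lay between them at 37.6 ± 1.35, and since hh, ptc and smo lay within 2 SD of en, their order is not resolved. The morphogen dpp was lower per kilobase at 17.5 ± 0.907, with 96.7, 87.5 and 90.1 CPM.

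In the dorsal-ventral list, the glycosyltransferase fng, which modifies Notch, was the highest per kilobase at 148 ± 3.25, followed by trn at 89.9 ± 5.79 and the dorsal selector ap at 89.4 ± 0.736, which do not differ beyond their spread, and then by the Notch ligand Ser at 68.8 ± 2.11. The ligand Delta was at 42.5 ± 0.893 and wg, expressed along the margin, at 39.9 ± 2.22 CPM per kilobase. The margin genes ct and sens were the lowest, at 3.19 ± 0.0615 and 3.94 ± 0.446. In the notum and proneural list, emc, an inhibitor of proneural proteins, led at 279.5 ± 5.71 CPM per kilobase. The proneural genes sc and ac were at 31.4 ± 3.39 and 24.9 ± 0.711, whereas l(1)sc was at 0.465, 0.365 and 0.222 CPM in controls 1, 2 and 3.

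The Hox genes, which set segment identity along the body, divided by level. Antp, the Hox gene of the segment that bears the wing, was the highest at 10.8 ± 0.358 CPM per kilobase, with 89.2, 84.96 and 83.7 CPM in controls 1, 2 and 3. Ubx, the selector of the next segment and its haltere, was at 6.95 ± 2.53 CPM per kilobase, with 18.8, 40.5 and 29.98 CPM, a CV of 36.4%. Scr and abd-A were low and uneven, at 1.13, 4.29 and 3.11 CPM and at 0.291, 7.46 and 0.518 CPM. Abd-B, lab, Dfd and pb stayed under a mean of 1 CPM, so 4 of 8 reached it, against 46.9% of all genes.

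**Figure D3:**
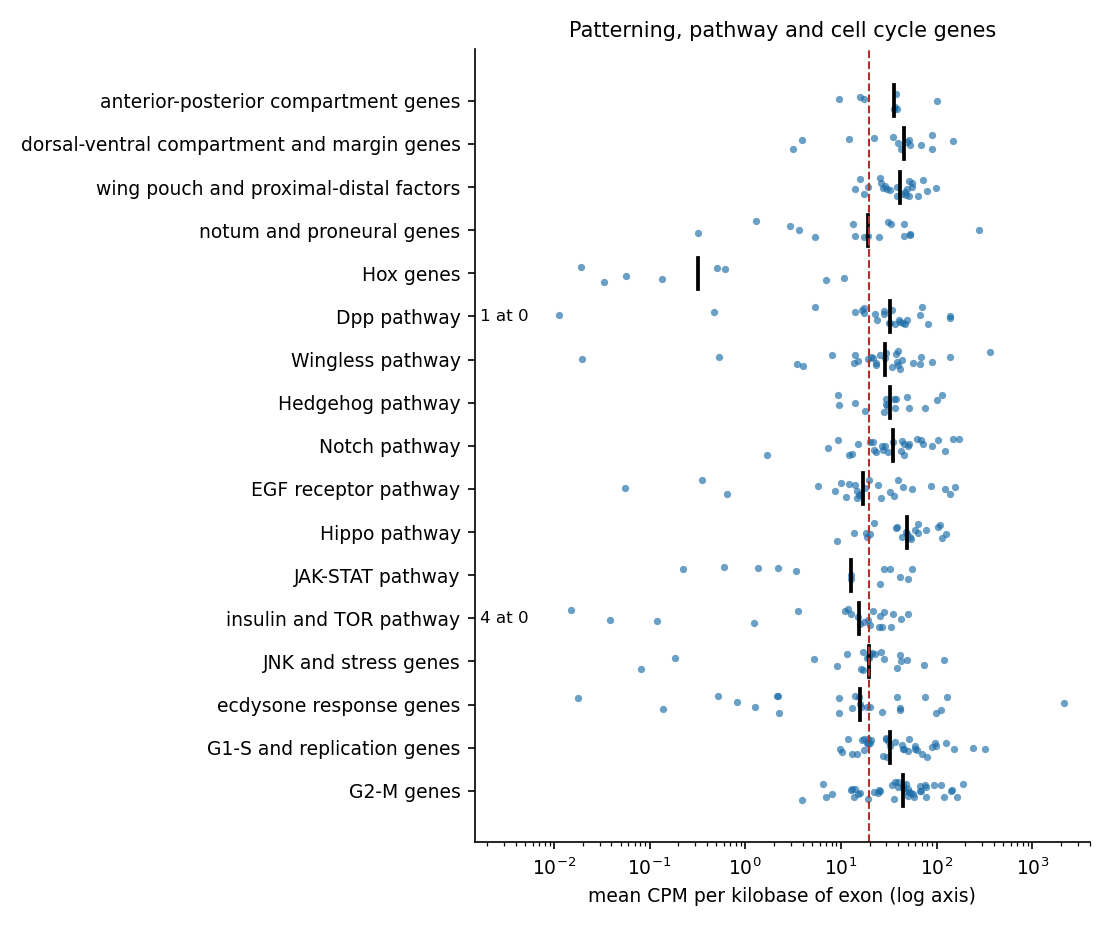
Mean CPM per kilobase of exon (log axis) of each member of 17 lists of patterning, pathway and cell cycle genes, as points. Black bars are list medians, the dashed line is the median of all genes at 1 CPM or more (19.5), and members with no count are given as a number at the left, where the Dpp list has 1 and the insulin list 4. Hox genes lie lowest, with a median of 0.318, and ImpE2 at 2175 lies farthest right.

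The signalling pathways were present almost in full. In the Hedgehog, Notch and Hippo pathways every measured member reached 1 CPM (16 of 16, 29 of 29 and 21 of 21), as did 28 of 29 for Wingless, 24 of 26 for Dpp, 24 of 26 for the EGF receptor, 12 of 13 for JAK-STAT and 19 of 26 for insulin and TOR, against 46.9% of all genes. Members below it were the Dpp pathway genes scw and tsg, the Wnt gene wntD, the EGF receptor pathway genes grk and stet, the JAK-STAT ligand upd2, and 7 of the insulin-like peptide genes.

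For Dpp, the type I receptor tkv was at 138 ± 4.87 CPM per kilobase and the second ligand gbb at 139 CPM per kilobase, both above dpp at 17.5. The glypicans dally and dlp, which shape the gradient, were at 82.2 ± 1.88 and 46.6 ± 3.12, and the protease tok at 67.1 ± 2.49. The embryonic ligand scw had no count and Actbeta had 0.930, 4.08 and 0.148 CPM in controls 1, 2 and 3. For Wingless, the beta-catenin arm was highest at 363 ± 11.6 CPM per kilobase, and the receptors fz2 and arr were at 90.4 ± 0.818 and 67.1 ± 2.71. Of the Wnt ligands, wg at 39.9 and Wnt5 at 37.6 CPM per kilobase were followed by Wnt2 at 28.6 and Wnt6 at 15.3, and wntD was at 0.0196.

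For Notch, the receptor N was at 875, 919.8 and 964 CPM in controls 1, 2 and 3 and 90.6 ± 4.405 CPM per kilobase, above Ser and Delta. The E(spl) genes, which are direct targets of Notch, had means from 1.67 CPM per kilobase for E(spl)m5-HLH to 173 for E(spl)malpha-BFM. Of the 11 listed, 10 were lowest in control 2, where 36.2% of all genes at 1 CPM or more were lowest. E(spl)m8-HLH had 26.9, 14.9 and 25.5 CPM, and E(spl)malpha-BFM 134, 88.6 and 129 CPM. For the EGF receptor, Egfr was at 87.0 ± 2.13 CPM per kilobase and the ligand spi at 155 ± 12.8, while rho, the protease that releases the ligand, was at 5.82 ± 0.139 and the ligand of the disc vn at 12.3 ± 0.505. The germ line ligand grk was at 0.581, 0.518 and 0.739 CPM.

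In the Hippo pathway the cadherins ds and ft were at 76.9 ± 5.36 and 48.2 ± 2.91 CPM per kilobase, the kinases hpo and wts at 38.5 ± 0.882 and 18.7 ± 0.218, and the coactivator yki at 64.8 ± 1.96. In JAK-STAT the receptor dome and the factor Stat92E were at 55.4 ± 2.34 and 50.7 ± 2.12 CPM per kilobase, and the ligand upd1 at 3.43 ± 0.160. In the insulin and TOR list, mTor, Akt and InR were at 28.3 ± 1.501, 42.2 ± 0.473 and 14.9 ± 1.21 CPM per kilobase, and the insulin-like peptide genes Ilp1, Ilp3, Ilp4 and Ilp5 had no count. Ilp8, a peptide that disturbed discs release, was at 0.203, 0.0304 and 0.0739 CPM. Among stress genes Xrp1 was at 120.4 ± 2.21 CPM per kilobase, with 588, 587 and 569 CPM in controls 1, 2 and 3. The JNK ligand egr was at 5.30 ± 0.670 CPM per kilobase, and the cell death gene grim at 0.0822 ± 0.0786.

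The genes at the centre of the study were well measured. Psi, an RNA-binding protein with KH domains (2R, 16861321 to 16867714), had 322, 309.9 and 313 CPM in controls 1, 2 and 3, rank 611, with a CV of 2.06% against 1.01% from counting. Myc (X, 3373159 to 3391697) had 144, 141 and 135 CPM, rank 1642, with a CV of 3.30%. Per kilobase, Psi was at 55.4 ± 1.14 and Myc at 15.3 ± 0.504. The Myc partner Max was at 47.5 ± 1.45 CPM per kilobase, its antagonist Mnt at 17.4 ± 2.08, Mondo at 24.3 ± 0.484, and hfp, a repressor of Myc, at 70.7 ± 3.03.

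Cell cycle genes were expressed in full. All 37 of the G1-S and replication list and all 43 of the G2-M list were at 1 CPM or more, against 46.9% of all genes. PCNA was at 243 ± 8.67 CPM per kilobase and dUTPase at 323 ± 12.9, and the mitotic genes Top2, polo and CycB were at 191 ± 11.2, 162 ± 7.46 and 119 ± 1.48. The phosphatase string (stg), the switch for entry into mitosis, varied more than its list, with 238, 177 and 202 CPM in controls 1, 2 and 3, a CV of 14.98% against a list median of 5.06%. In control 2 these genes tended to be lowest. That held for 36 of 43 G2-M genes, 27 of 37 G1-S genes and all 6 Mcm genes, against 36.2% of all genes at 1 CPM or more. The differences were small, as for Mcm2 with 183, 162 and 178 CPM.

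The ecdysone list was the least steady of the pathway lists, with a median CV of 12.2% against 4.05% over all genes at 10 CPM or more, and 16 of its 24 members at 1 CPM or more were lowest in control 1, against 35.1% of all genes at 1 CPM or more. ImpE2 had 2919, 4169.9 and 4054 CPM in controls 1, 2 and 3, ImpE1 482, 682 and 704 CPM, the nuclear receptor Hr4 152, 220.1 and 270.04 CPM, and Blimp-1 130.2, 184 and 202 CPM. The receptor genes EcR and usp differed less, at 153, 131 and 138 CPM and at 80.4, 80.6 and 84.4 CPM. Of 12 glycolysis genes 11 were lowest in control 1, against the same 35.1%, by small margins, as for Gapdh2 with 622, 696 and 672 CPM.

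Markers of the labelled tissue were present in full. All 22 wing disc markers reached 1 CPM, against 46.9% of all genes. The markers were chosen as genes known from this tissue, and many of them are also in the patterning lists above. They summed to 7580.2, 7586 and 7844 CPM in controls 1, 2 and 3, and had a median CV of 3.80%. Markers of the adult muscle progenitors under the notum summed to 503, 491 and 482 CPM, led by how at 172, 181 and 179.8 CPM, with twi at 27.7, 26.7 and 26.7 CPM. Markers of trachea summed to 2250.0, 2357 and 2287 CPM. Among them verm, a chitin-binding protein, had 502, 581 and 504 CPM and the tracheal receptor btl 18.2, 18.6 and 18.1 CPM, while rib had no count in any pool with none of its exon bases covered by another gene.

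Markers of the larval fat body, an organ that lies free in the body cavity, were the exception. The 13 markers summed to 11770, 3868 and 934 CPM in controls 1, 2 and 3, a mean of 5524 ± 5605 CPM. Fbp1, a receptor for storage proteins, had 4879, 1459.8 and 188 CPM, the storage protein gene Lsp2 had 2239, 924 and 126 CPM, and Lsp1beta had 1786, 604 and 154 CPM. In all, 12 of the 13 were highest in control 1, against 31.4% of all genes at 1 CPM or more. Haemocyte markers summed to 2387, 1953 and 2091 CPM, and 12 of the 14 at 1 CPM or more were highest in control 1, against the same 31.4%, among them Hml (129.9, 50.5 and 57.7 CPM) and Col4a1 (276, 159 and 164 CPM). The exception of greatest weight was Ppn, a matrix protein, with 1034, 1104 and 1212 CPM.

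Markers of larval muscle showed the same tally at lower levels. They summed to 291, 220.0 and 253 CPM in controls 1, 2 and 3, and 12 of the 14 at 1 CPM or more were highest in control 1, among them Mhc, a myosin heavy chain, with 9.94, 2.86 and 6.73 CPM. Of the sum, sls, the fly titin, held 146, 129 and 139.8 CPM. Salivary gland markers summed to 20.4, 20.4 and 44.4 CPM in controls 1, 2 and 3. Of this sum sens, which is also in the list of margin genes, held 8.49, 10.7 and 9.83 CPM. Gut markers summed to 7.06, 1.37 and 4.69 CPM, ring gland markers to 13.5, 14.5 and 14.0 CPM. Germ line and testis markers summed to 28.3, 25.6 and 25.8 CPM.

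**Figure D4:**
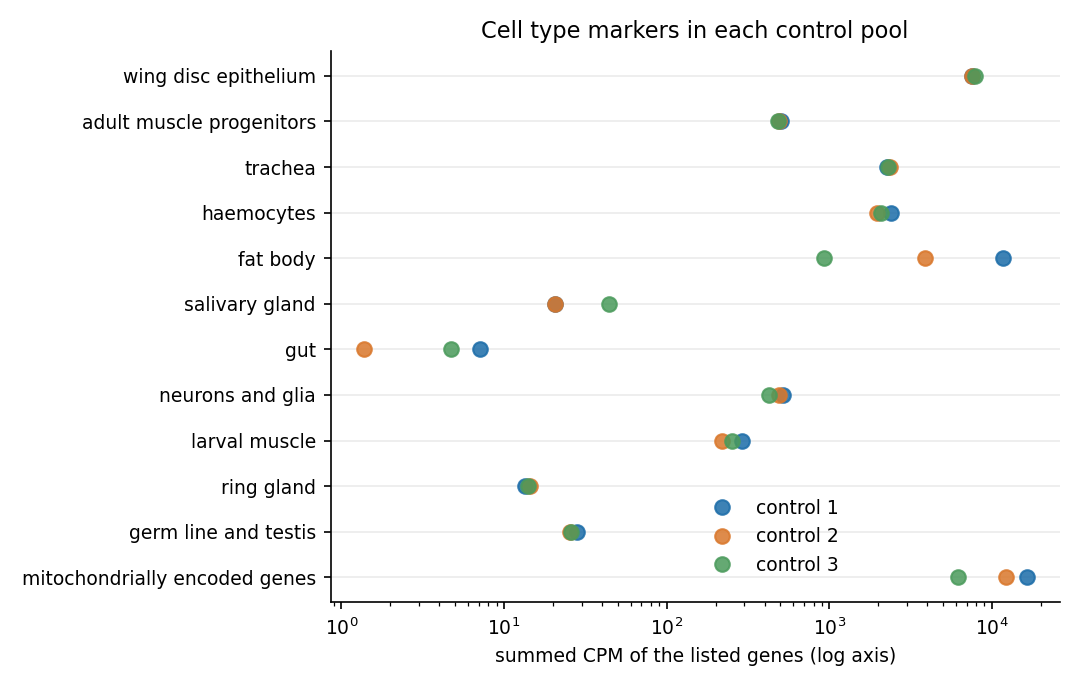
Summed CPM (log axis) of 11 cell type marker lists and of the mitochondrially encoded genes in controls 1, 2 and 3 (colours). Wing disc, muscle progenitor, tracheal, ring gland and germ line sums nearly coincide, while fat body markers run from 934 CPM in control 3 to 11770 CPM in control 1.

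Between the pools most genes were very close. Over the 6479 genes at 10 CPM or more, the median CV was 4.05%, where counting alone gives 2.24%, and 91.1% of these genes had a CV under 10%. For 21.0% the CV was at or under the value expected from counting. An SD over 3 values scatters widely around its expected value, so 21.0% is not the share of genes without variation beyond counting. Pearson's r of log2(CPM + 0.5) across the 8199 genes at 1 CPM or more was 0.984 for controls 1 and 2, 0.975 for 1 and 3 and 0.974 for 2 and 3, as a description across genes, which are not independent. As a check for a library deposited more than once, the chi-square of the counts per degree of freedom was 34.8, 62.2 and 27.5 for the same pairs, far above the value near 1 of a repeated library, and nothing else was read from it. The common biological coefficient of variation from edgeR, the variation between pools beyond counting, was 17.3% over 8519 genes and depended on how it was estimated. It was 16.4% without fat body markers and 29.9% with no filter on low counts, and the median of the gene-wise estimates of DESeq2 was 3.23%. Among the steadiest genes at 10 CPM or more were wrd, a regulatory subunit of protein phosphatase 2A, at 208.3, 208.4 and 208.3 CPM, together with Rab39 and the chromatin remodelling subunit Snr1 at 119.3, 119.4 and 119.5 CPM in controls 1, 2 and 3. Their CVs of 0.0154% for wrd and 0.0782% for Snr1 lie far below the 1.24% and 1.64% that counting alone gives, so values this close do not mark these genes as steadier than others.

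A small set of genes was over 4-fold apart between the highest and the lowest pool. It held 374 of the 8199 genes at 1 CPM or more (4.56%), 331 of them between 1 and 10 CPM. Among genes at 1 CPM or more over a pair of pools alone, the number was 153 between controls 1 and 2 (without control 3), 238 between 1 and 3 (without control 2) and 274 between 2 and 3 (without control 1). Control 3 was the lowest pool for 308 of the 374, against 28.7% of all genes at 1 CPM or more. It was also the library with the fewest counts, and the part of that in this tally was not tested.

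The genes highest in control 1 (177, or 2.16% of the 8199) summed to 13511, 4455 and 999 CPM in controls 1, 2 and 3. Of the 13 fat body markers, 9 were in this set. Examples beyond the markers, picked after their values were seen, were Lsd-1, a lipid droplet protein, with 39.9, 31.0 and 4.18 CPM, NimC2 with 51.8, 11.9 and 2.48 CPM and the stress-induced TotA with 57.4, 4.51 and 2.81 CPM. The translation repressor Thor (4E-BP), a member of the insulin list, had 42.4, 28.1 and 9.54 CPM, and the fat body peptide Ilp6 showed the same order with 14.1, 8.10 and 3.73 CPM. Fat body marker sums moved with all of these, and the part of that tissue in each was not tested.

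The genes highest in control 2 (162, or 1.98%) were low in level and summed to 304, 1049 and 66.1 CPM in controls 1, 2 and 3. They held 4 of 14 markers of neurons and glia, 4 of 10 nicotinic acetylcholine receptors and abd-A. The synaptic genes nSyb, Syt1 and brp had 3.37, 13.2 and 0.924 CPM, 10.1, 15.5 and 2.03 CPM, and 4.51, 9.28 and 0.481 CPM. The neural progenitor gene pros had 10.2, 45.2 and 1.33 CPM and lncRNA:cherub, known from neuroblast tumours, 6.98, 52.02 and 0.739 CPM. The largest value was that of Obp44a, with 29.5, 125 and 0.776 CPM. Over the whole marker list of neurons and glia the sums were 516, 492 and 424 CPM, of which nrv2 held 232, 222 and 221 CPM. By gene, 8 of the 13 at 1 CPM or more were highest in control 2, against 30.1% of all genes, and 9 of the 13 were lowest in control 3, against 28.7%. The part of neural tissue in the genes highest in control 2 was not tested.

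The genes highest in control 3 (35, or 0.427%) summed to 36.4, 27.5 and 1245 CPM in controls 1, 2 and 3. The odorant-binding protein gene Obp56d had 2.12, 1.25 and 319 CPM. A cluster of 6 of the 35 lay within 1 interval of 3R (17406678 to 17422202) that holds 12 counted genes, and summed to 1.45, 0.7002 and 644 CPM. Its members CG33333, CG42834 and CG14332 had 0.756, 0.122 and 301 CPM, 0.320, 0.183 and 142 CPM, and 0.233, 0.244 and 181 CPM. Salivary glue genes were in the same set at far lower levels, with Sgs3 at 1.05, 1.19 and 7.84 CPM and Sgs7 at 3.69, 2.47 and 11.6 CPM.

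**Figure D5:**
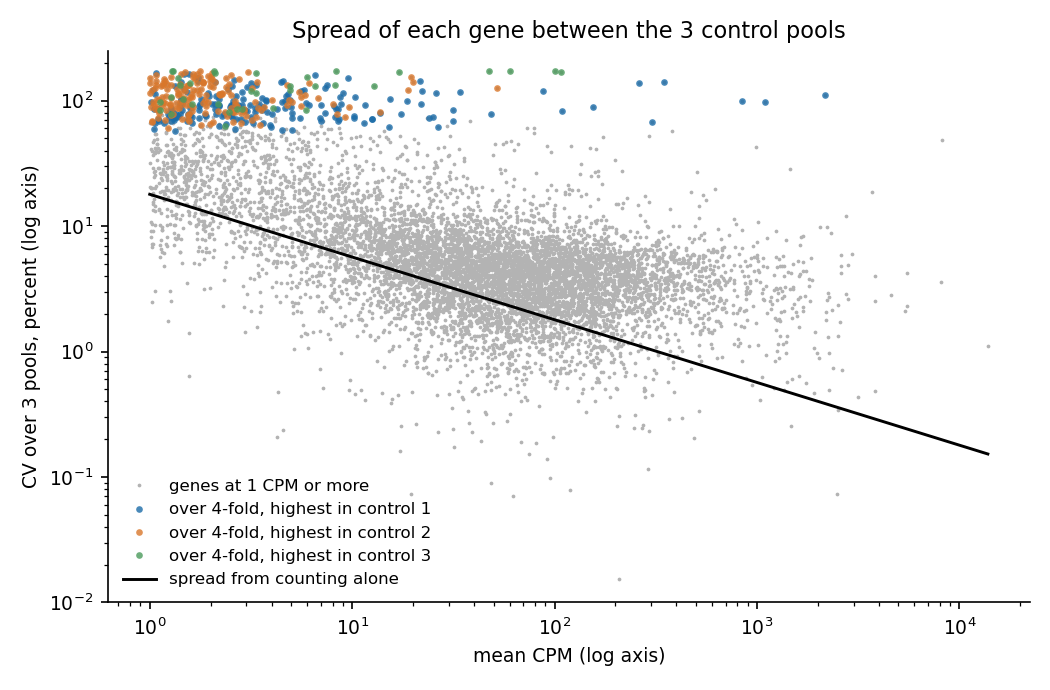
CV over the 3 control pools in percent (log axis) against mean CPM (log axis) for genes at 1 CPM or more. The black line is the spread from counting alone, and coloured points are the genes over 4-fold apart, by the pool in which they were highest (177 in control 1, 162 in control 2 and 35 in control 3).

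Mitochondrially encoded transcripts summed to 16343, 12141 and 6176 CPM in controls 1, 2 and 3, the same order of pools as the fat body markers. Besides mt:lrRNA, mt:CoI of cytochrome oxidase had 1878, 1447 and 1048 CPM. Without these genes in the library total the share of cytosolic ribosomal proteins was 12.4% in place of 12.3%. The dosage compensation RNAs roX1 and roX2, which are made in males, had 634, 226 and 286 CPM and 42.8, 11.7 and 15.6 CPM. The sex determination genes Sxl and tra had 308, 343 and 321 CPM and 24.6, 24.8 and 24.9 CPM. Counts per gene do not separate splice forms, so the values of Sxl and tra give no level of a female form.

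By chromosome, the small chromosome 4 stood apart. Of its 79 protein-coding genes, 66 (83.5%) reached 1 CPM, against 54.0% to 61.9% on the X and the 4 large autosome arms. Their median was 42.1 CPM per kilobase, with quartiles of 9.08 and 66.9, against medians of 18.8 to 21.3 on those arms, and it was 43.3, 42.5 and 42.2 in controls 1, 2 and 3. On the X, 1343 of 2168 coding genes reached 1 CPM, with a median of 19.2 CPM per kilobase, within the range of the autosome arms.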

How the data were processed

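The authors pooled discs, prepared stranded poly(A) libraries, and, per the labels and the study's methods, checked reads with FastQC 0.11.6, aligned them to FlyBase release 6.10 with TopHat2 2.1.1 and counted pairs per gene with HTSeq 0.6.1. The deposited values used here are whole-number counts per gene, 1 file per control library. The 5 summary lines were left out of library totals. In each file 1.29% to 1.32% of pairs fell in no gene, 1.61% to 1.80% were ambiguous between genes and 9.52% to 10.5% had several alignments, so genes with near-identical copies or shared exons are undercounted. The authors' deposited tables of fold changes, p-values (DESeq2 1.12.0) and splicing were not used, apart from the gene identifiers in 1 of them, nor were 48 columns of values per library in them.

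CPM was computed from gene counts. Symbols were matched by identifier for 17242 of 17471 genes, through Entrez identifiers for 140 and from the authors' symbols for 47, and 42 had none. Exon lengths and positions are from Ensembl release 115 (BDGP6.54, the Release 6 assembly, with later gene models than those counted) for 17383 genes. Spread was described with Python 3.11.15, pandas 2.3.3 and edgeR 4.0.16 in R 4.3.3 (TMM, common dispersion, no covariate), tested on simulated data. No test was run, since 1 group was described. Alternatives were other scalings (TMM, DESeq2 1.42.0 size factors), thresholds and totals, and leaving out each pool.

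The text names the 20 highest genes by CPM and per kilobase, the 12 steadiest and 12 widest at 10 CPM or more, the genes of the study's text, members of the lists and the 4 highest of each family. Lsd-1, NimC2 and the interval around CG42834 were picked after their values were seen. Members and lists were chosen with earlier results of these data known.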

Additional observations from a re-analysis of the deposited data

How the results depend on the processing

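Without 1 pool, the count of genes at 1 CPM or more moved little, at 8090 to 8286. So did the share of the 100 most abundant genes, at 23.1% to 23.5%, and the ribosomal share, at 12.2% to 12.3%. Silent genes, 4254 with all 3 pools, numbered 4501 to 5118, a count that leaving out a pool can only raise. With under 3 counts over the pools as the limit, they numbered 5855. Genes at a mean of 0.5 CPM or more numbered 8801 and at 5 CPM or more 7050. With 1 CPM required in each pool the number was 7754. As shares of CPM per kilobase the 100 most abundant genes held 37.5%, and without mitochondrially encoded genes in the total (an alternative chosen after seeing the data) the ribosomal share was 12.4%. Fat body markers averaged 2401 to 7819 CPM without 1 pool and 2401 CPM without control 1. The biological coefficient of variation was 15.4% to 20.7% without 1 pool, 29.9% with no filter on low counts, 16.4% without fat body markers and 3.23% as the median gene-wise DESeq2 estimate. The median CV was 3.21% to 3.36% without 1 pool, 3.94% with TMM, 4.83% for genes at 1 CPM or more and 3.496% for genes at 100 CPM or more. Genes over 4-fold apart numbered 153 to 274 without 1 pool (274 without control 1, 238 without control 2 and 153 without control 3) and 43 at 10 CPM or more, and 658 were over 2-fold apart. Of 49 alternatives, 32 kept counts within 1.5 times, levels and shares within 1 SD, and both measures of spread the same to 2 digits. For the ribosomal share and the fat body sum, leaving out 1 of 3 pools cannot move the mean by 1 SD. Those alternatives were bound to be kept, and they say nothing of how firm these values are. With 27051832 to 34401160 counts a pool, a count of 0 in 1 pool allows up to 0.111 CPM, and genes under 1 CPM rest on few reads. No paired analysis was possible because 1 group was described and no test was run.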
